A study of Mus musculus with 67 samples.

Results

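Cultured mouse microglia were used to define 68 table rows, each a gene-level feature, that rose with lipopolysaccharide (LPS) in control cells and rose by less than 0.5 as much in cells lacking Orai1. The 68 rows were found among 45707 rows of the culture table, of which 28306 held a count in at least 1 culture library. Levels were log2(CPM + 1), where CPM is a count scaled to a common library total by the column sum, averaged over the libraries of a genotype and treatment. The rows were selected on these culture values alone: a row entered when its WT rise with LPS was at least 2, its WT change with thapsigargin plus PDBu was under 1 in either direction, and its KO rise with LPS was under 0.5 of the WT rise. The rule allowed up to 150 rows by the size of the genotype difference, and since 68 passed, none was left out by that limit. The first 2 limits were met by 252 rows, and the other 184 of these, whose KO rise was at least 0.5 of the WT rise, are called the retained rows and serve as the comparison. The 68 are called the blunted rows. Neither deposited table gives names or identifiers for its rows, which are therefore called by their number counted from the top, and neither Orai1 itself nor any pathway or cell type marker could be looked up.

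WT denotes Orai1 fl/fl and KO denotes Orai1 fl/fl Cx3CR1-cre/ERT2, in which a tamoxifen-inducible Cre is expressed from the Cx3cr1 locus, active in microglia and related myeloid cells. Cre and the loss of Orai1 occur in the same libraries and cannot be told apart. The 34 culture libraries came from hippocampal microglia of pups at postnatal days 2 to 5, of both sexes, and both genotypes were given 1 µM hydroxytamoxifen. They were exposed for 6 h to vehicle (6 WT and 6 KO libraries), LPS at 10 ng/ml (6 WT and 5 KO) or thapsigargin at 0.2 µM with the phorbol ester PDBu at 50 nM (6 WT and 5 KO; written Tg+PDBu). A second table held 33 libraries of microglia sorted from the whole brain. The mice were 10 to 12 weeks old, had been given tamoxifen 30 to 35 days earlier, and received PBS vehicle (6 WT and 6 KO libraries) or LPS at 1 mg/kg for 24 h (8 WT and 7 KO, both sexes) or 6 h (3 WT and 3 KO, males). A deposited metadata table describes the sorted libraries as cultured cells, against the sample labels, and the labels were followed. The labels do not say which libraries share an animal or a culture, so p-values rest on a spread between libraries that may be partly technical.

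LPS, a component of bacterial outer membranes, is sensed through Toll-like receptor 4, and signals through NF-κB and interferon regulatory factors to induce cytokines, chemokines and antiviral genes. Orai1 forms the pore of the store-operated calcium channel, which opens when the endoplasmic reticulum loses calcium, and calcium entering there activates calcineurin and the transcription factor NFAT. Thapsigargin empties the stores by blocking the pump that fills them, and PDBu activates protein kinase C, so the pair engages the calcium route without a Toll-like receptor ligand. The blunted rows were thus rows that responded to LPS in WT cultures, changed little with Tg+PDBu there, and responded less to LPS in KO cultures.

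Library totals were 7868694 to 16070721 counts in cultures and 4989974 to 7596706 in sorted cells. Culture libraries are named by the number in their library name, and those of a genotype and sex with the same number were taken to come from the same culture, which the labels do not state. In WT female culture 3, 4 rows specific to male libraries stood at 0.415 to 0.563 of the male level, against at most 0.0436 in the other 13 female libraries, so its 3 libraries went against their label in part. Without them 85 rows passed the rule, 67 of the 68 among them. Row 1 of the tables had 0 counts in the 18 WT culture libraries, 0 to 2 in the 17 WT sorted libraries, 0 to 197 in the 16 KO culture libraries and 505 to 1642 in the 16 KO sorted libraries. Rows of the 2 tables were joined by position. Spearman's rho of mean levels between the tables was 0.853 over rows in place, and 0.383 to 0.406 with 1 table shifted by 1 to 3 rows.

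In cultures the blunted rows rose from a low level. The WT mean level of a row ranged from 0 to 85.3 CPM with vehicle (median 2.11) and from 4.05 to 920 CPM with LPS (median 35.7), and 17 rows exceeded 100 CPM with LPS. In KO cultures the median row went from 6.43 CPM with vehicle to 12.3 CPM with LPS. Values of the WT libraries and of the KO vehicle and LPS libraries chose the rows, so wherever they or calls made from them are given, they are a description and support nothing. In bulk RNA, fewer responding cells and less RNA per cell cannot be told apart.

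Taking the median over the 68 rows in each library, WT libraries stood at 1.70, 1.74 and 2.31 (lowest, median and highest log2(CPM + 1) of 6) with vehicle and at 4.21, 5.18 and 5.43 with LPS. The 6 KO vehicle libraries stood at 2.62, 2.78 and 2.88, and the 5 KO LPS libraries at 3.35, 3.69 and 3.84. Every KO LPS library was thus above every KO vehicle library and below every WT LPS library, and every KO vehicle library was above every WT vehicle library. Within a culture, the median rise with LPS over the 68 rows was 2.20 to 3.00 log2 units in the 6 WT cultures and 0.69 to 1.21 in the 4 KO cultures that had both libraries. The retained rows rose by 2.81 to 3.31 in the same WT cultures and by 2.02 to 2.81 in the same KO cultures.

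**Figure D1:**
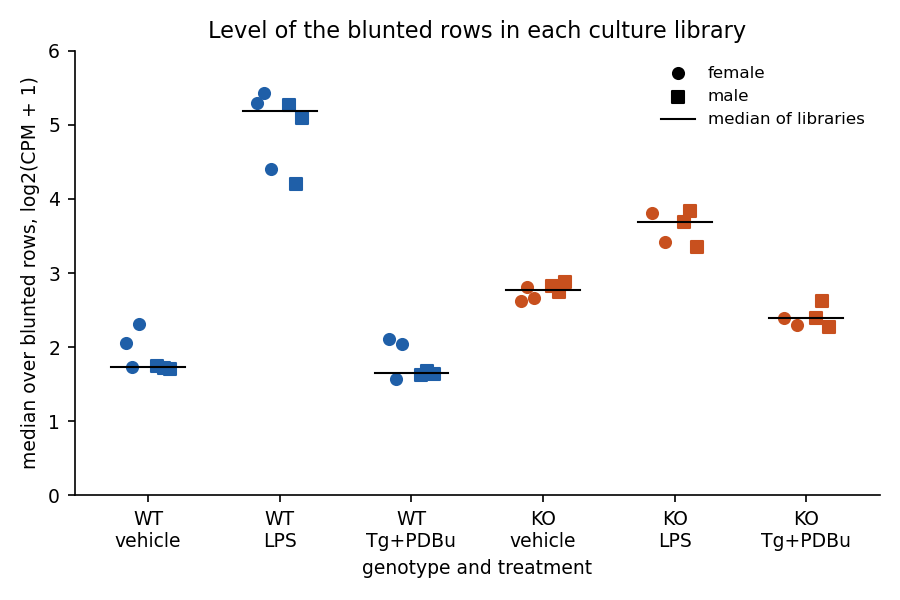
Median over the 68 blunted rows of log2(CPM + 1) in each of the 34 culture libraries, by genotype and treatment; circles are female, squares male, and the line is the median of the libraries. The 5 KO LPS libraries (3.35 to 3.84) lie between the KO vehicle libraries (2.62 to 2.88) and the WT LPS libraries (4.21 to 5.43), of which 2 stand below the other 4.

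The WT libraries did not respond evenly. WT female culture 3 and WT male culture 4 had the lowest median rises, 2.20 and 2.30, against 2.78 to 3.00 in the other 4 WT cultures. With LPS, culture 3 was among the 2 lowest of the 6 WT libraries in 51 of the 68 rows and male culture 4 in 56, and they were both of the 2 lowest in 46. Their rise over the retained rows was 3.01 and 2.81, inside or next to the range of 2.87 to 3.31 in the other 4. The same pair also had the trimmed-mean (TMM) scaling factors closest to 1 among WT LPS libraries, 0.909 and 0.861 against 0.643 to 0.738. The part of these features in the level of the blunted rows was not tested. In KO, female culture 16 had the weakest rise, 0.69 against 1.12 to 1.21 in the other 3, and without its LPS library 49 rows passed the rule, all 49 among the 68.

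**Figure D2:**
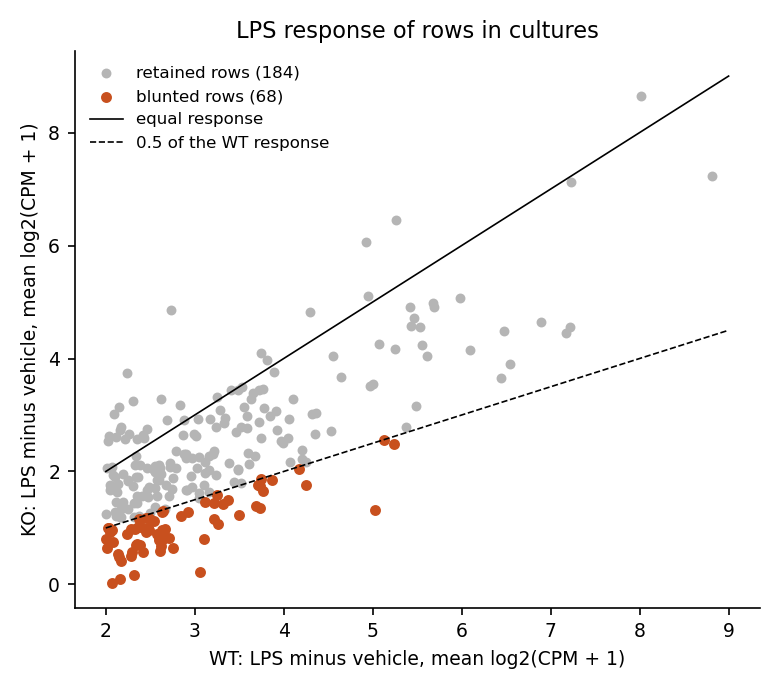
Mean LPS response in log2(CPM + 1), KO against WT, for the 252 rows with a WT rise of at least 2 and a WT Tg+PDBu change under 1; the solid line is an equal response and the dashed line 0.5 of the WT response. The 68 blunted rows lie below the dashed line by construction, with WT rises from 2.00 to 5.24, and 31 of them still rose by more than 1 in KO.

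The WT rise of a blunted row was 2.00 to 5.24 log2 units (median 2.61) and the KO rise 0.03 to 2.56 (median 0.99), so that the KO rise was a median 0.38 of the WT rise. The response was reduced and seldom absent, with 31 rows rising by more than 1 in KO and 7 by less than 0.5. In the retained rows the medians were 3.03 in WT and 2.37 in KO. A fit of the counts gave the same picture as a description. With edgeR's quasi-likelihood test and Benjamini-Hochberg adjustment over all 15979 rows tested, 68 of 68 were higher with LPS in WT, where 21.8% of rows tested were higher and 26.2% lower, and 51 of 68 in KO, where 8.71% were. The KO minus WT difference of the response was below 0 and called in 59 of the 68, against a background of 9.92% (5.96% were above 0), and in 77 of the 184 retained rows. Without WT female culture 3 these counts were 68, 56 and 59, and none of the other edgeR counts of called rows in culture moved by more than 3. The 6 LPS libraries of WT did not overlap the 6 vehicle libraries in 67 of 68 rows (background 8.01%). The KO LPS libraries lay above the KO vehicle libraries in 38 (background 6.03%). The WT LPS libraries lay above the KO LPS libraries in 36 (background 5.94%). In the retained rows these counts were 182, 179 and 94 of 184, so the last separation was not particular to the blunted rows.

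A smaller rise can come from a lower level with LPS or from a higher level at rest, and the 68 rows held both kinds. In 44 rows the KO level with LPS was lower than in WT by 1 log2 unit or more. In 14 rows the KO level with vehicle was higher by 1 or more, 1 row met both conditions, and 11 met neither. The difference with vehicle was the larger term in 18 rows, and in 5 rows the KO level with LPS was not below that of WT at all. For these rows, at these column-sum levels, the word blunted describes the rise and not the level reached. Column sums put the KO minus WT difference higher than TMM does. By edgeR's fit, its median over the 68 rows with LPS was -2.17 with TMM and -1.55 with column sums. With vehicle it was 0.42 and 0.60. The median KO minus WT difference was 0.31 with vehicle and -1.38 with LPS over the 68 rows, against -0.34 and -1.07 over the retained rows. The medians of the lists thus had opposite signs with vehicle and the same sign with LPS. All 6 KO vehicle libraries lay above all 6 WT vehicle libraries in 22 of 68 blunted rows and in 8 of 184 retained rows (background 23.1%). In the fit, 25 blunted rows were higher in KO with vehicle and 6 lower (background 30.1% and 23.7%), and 21 retained rows were higher and 85 lower. The count of 6 was 3 without the vehicle library of KO female culture 16 or of WT male culture 4, and 2 without that of WT female culture 14. With LPS, 62 blunted rows and 156 retained rows were lower in KO (background 30.1%), and 0 and 3 were higher.

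**Figure D3:**
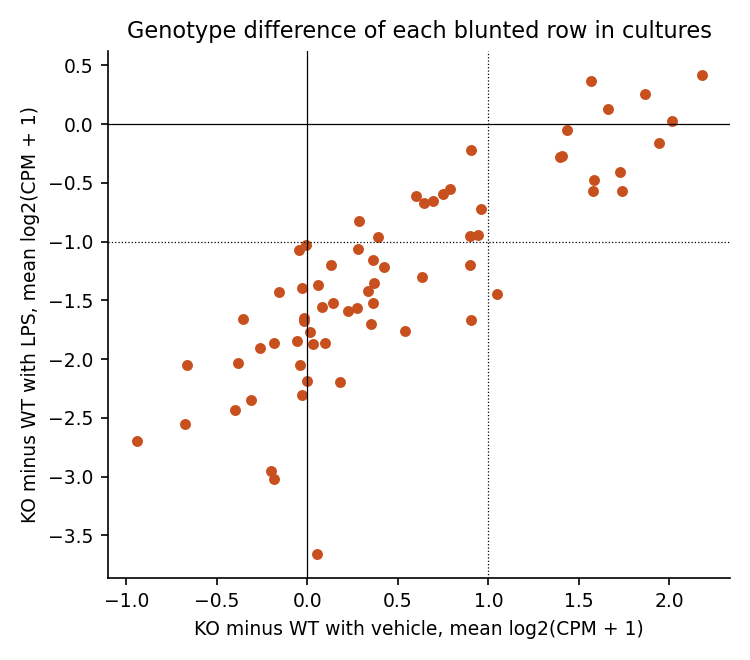
KO minus WT difference in mean log2(CPM + 1) with vehicle (x) and with LPS (y) for each of the 68 blunted rows; dotted lines mark a difference of 1. Most points lie below the lower dotted line (44 rows, including 1 that is also beyond the right-hand line), and 14 in all lie beyond the right-hand line.

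Rows 4624 and 19116 had the largest genotype difference in the rise. Row 4624 was at 0.0826, 0.407 and 2.30 CPM (lowest, median and highest of 6) in WT vehicle libraries and at 23.3, 55.1 and 157 CPM in WT LPS libraries. In KO it was at 0, 0.798 and 1.79 CPM with vehicle, and at 0.89, 1.08, 4.88, 5.39 and 7.40 CPM in the 5 LPS libraries. The WT LPS libraries were all above the KO LPS libraries, and the vehicle groups overlapped. Row 19116 split the WT cultures: 4 LPS libraries were at 21.7, 23.1, 24.3 and 45.6 CPM, while WT female culture 3 had 0 counts and WT male culture 4 had 1 count. Its KO LPS libraries held 9 counts in all and its 6 KO vehicle libraries 0, so its place near the top of the list rests on 4 WT libraries.

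Rows 17734 and 8463 had the highest CPM with LPS in WT, and their KO rises, 1.50 and 2.04 log2 units, were above the median of the 68 rows. The first was lower in KO with LPS and the second was higher in KO with vehicle. In the edgeR fit each also differed in the other condition. The first was lower in KO with vehicle (log2 difference -0.90, SE 0.32) and the second lower in KO with LPS (-1.17, SE 0.31). Row 17734 was at 57.0, 79.2 and 146 CPM in WT vehicle libraries and at 407, 1008 and 1399 CPM in WT LPS libraries. In KO it was at 42.7, 50.4 and 62.5 CPM with vehicle and at 67.4, 117, 150, 196 and 277 CPM with LPS, all under the lowest WT LPS library. Row 8463 was at 16.9, 23.8 and 38.5 CPM in WT vehicle libraries, and at 74.4, 82.6 and 98.8 CPM in KO vehicle libraries, with no overlap. With LPS it was at 212, 500.3 and 758 CPM in WT and at 154, 321, 426, 437 and 536 CPM in KO, where the groups overlapped. Levels are per library total and not per length, so the order between rows is one of CPM alone.

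**Figure D4:**
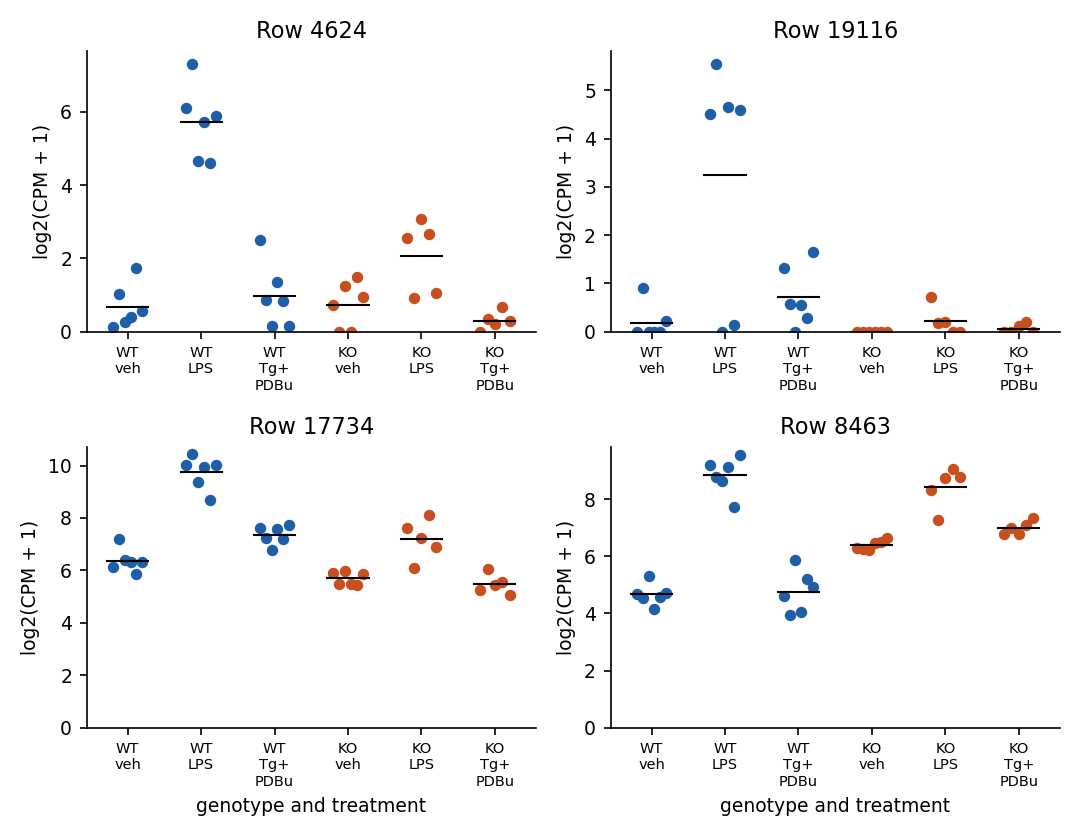
log2(CPM + 1) in each culture library for the 2 rows with the largest genotype difference in the LPS rise (4624, 19116) and the 2 most abundant rows (17734, 8463); points are libraries, WT blue and KO orange, and lines are group means. Row 19116 is high in 4 WT LPS libraries and near 0 in 2, and row 8463 is higher in all KO than in all WT vehicle libraries.

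Rows at the limit of the rule differed little across it. The blunted rows nearest to it were 5819, with a KO rise of 2.56 for a WT rise of 5.13, and 19453, with 1.86 for 3.75. The nearest rows outside were 12550, with 1.34 for 2.67, and 35986, with 1.53 for 3.05. The list also depended on scaling. TMM factors were 0.643 to 0.909 in WT LPS libraries, 0.98 to 1.07 in WT vehicle libraries and 1.06 to 1.22 in the 16 KO libraries, so column sums put WT LPS levels lower than TMM does. The median WT response of all rows tested was -0.50 with column sums and -0.09 with TMM. The rule applied with TMM library sizes passed 148 rows, 65 of the 68 among them, and the median WT rise of the 68 was then 3.03. Over all rows tested, the share of calls that were higher went from 45.4% with TMM to 19.97% with column sums for the WT response to LPS, from 56.0% to 72.3% for KO against WT with vehicle, and from 52.5% to 84.2% with LPS. Likewise 37.5% of the calls in the KO minus WT difference of the LPS response were higher with TMM and 84.7% with column sums.

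The rule bounded the WT change with Tg+PDBu and used the KO vehicle libraries, while the 5 KO Tg+PDBu libraries were not used. Since a high KO vehicle level favours entry into the list, the comparison of Tg+PDBu with vehicle in KO is tilted towards a fall and is given as a description. The library medians over the 68 rows were 2.27 to 2.62 log2(CPM + 1) in the KO Tg+PDBu libraries and 2.62 to 2.88 in the KO vehicle libraries, where the highest of the first exceeded the lowest of the second by less than the rounding of these values. By edgeR's quasi-likelihood test, 5 of 68 rows were higher than with vehicle (background 17.9%) and 23 lower (background 30.9%), and the share of lower rows, 33.8%, was near that background. The median log2 change was -0.45 over the 68 rows and -0.23 over all rows tested. Of the retained rows 34 of 184 were higher and 34 lower. These counts moved with single libraries and with the fit: 15 and 12 blunted rows were lower without the Tg+PDBu library of KO female culture 16 or 7, and 11 were higher and 15 lower when the KO groups alone were fitted.

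Row 7289 had 0 counts in all 6 KO vehicle libraries and 0.637, 0.956, 1.97, 2.52 and 3.45 CPM in the KO Tg+PDBu libraries. Against the floor of 3 counts over the vehicle group, it was at least 41.9-fold higher. In WT cultures the same row went from 1 count in 6 vehicle libraries to between 0.103 and 1.01 CPM with Tg+PDBu and between 2.18 and 6.79 CPM with LPS, and in KO cultures with LPS it reached 0 to 1.26 CPM, under 3 of the 5 Tg+PDBu libraries. Row 31185 held 4 counts in the 6 KO vehicle libraries and 24 in the 5 Tg+PDBu libraries. In the other direction, row 15933 was at 1.04, 1.68 and 2.74 CPM in the KO vehicle libraries and at 0.212, 0.328, 0.328, 0.343 and 0.809 CPM in the Tg+PDBu libraries, with no overlap. Its log2 change was -2.14 (SE 0.45). Row 34695 held 15 counts in the KO vehicle libraries and 1 in the Tg+PDBu libraries. The edgeR call of row 31185 was lost when 1 of the Tg+PDBu libraries was left out (adjusted p = 0.237). That of row 34695 was lost when some single libraries were left out (adjusted p = 0.0762 to 0.175, edgeR).

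Between the genotypes under Tg+PDBu, 16 blunted rows were higher in KO and 22 lower by edgeR (background 28.3% and 28.6%), and the median log2 difference was -0.15. This balance depended on scaling. With column sums in place of TMM, 23 were higher and 10 lower, against 7163 higher and 1879 lower of the 15979 rows tested. The median was then 0.22 over the blunted rows and 0.39 over all rows tested. The share of all calls that were higher went from 49.7% to 79.2%. The count of 22 was 14 without the Tg+PDBu library of KO female culture 16 and 13 without that of WT female culture 12. The WT Tg+PDBu libraries had entered the rule through its bound on the WT change, so these values too are a description.

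Row 8566 was at 5.61, 9.09 and 20.8 CPM in WT Tg+PDBu libraries and at 42.0, 44.8, 56.7, 62.7 and 65.1 CPM in KO, a log2 difference of 1.94 (SE 0.28). Its groups did not overlap, and it was also higher in KO with vehicle, at 27.6 to 67.9 CPM against 7.87 to 25.7 CPM. Row 10271 was at 0.358, 1.66 and 2.76 CPM in WT and at 5.32, 6.17, 7.63, 9.30 and 10.3 CPM in KO, a difference of 1.87 (SE 0.30). With vehicle and with LPS, row 10271 in KO stayed within 4.64 to 9.79 and 5.85 to 9.70 CPM, while in WT it went from 0.826 to 2.88 CPM to 9.99 to 14.4 CPM. In the other direction, row 19116 held 3 counts in all KO Tg+PDBu libraries and 55 in WT, and row 4624 was at 0, 0.164, 0.212, 0.257 and 0.588 CPM in KO and 0.103, 0.804 and 4.68 CPM in WT. The groups overlapped in both rows. The edgeR call of row 19116 was lost with RLE or column-sum scaling and when some single libraries were left out (adjusted p = 0.0529 to 0.187). That of row 4624 was lost with column sums and when some single libraries were left out (adjusted p = 0.0587 to 0.264, edgeR).

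No difference between the sexes in the LPS response was called, in the blunted rows or in any of the 15979 rows tested by edgeR (background 0.0% in each direction), and DESeq2 called 0 of the 68 as well. At an unadjusted p under 0.05, 0 of 68 rows differed between males and females in WT, 2 in KO and 1 in the KO minus WT difference. The median male minus female difference was 0.05 in WT and 0.18 in KO. The intervals were wide, with a median 95% half-width of 1.35 and 1.42 log2 units, and lay within 1 unit of 0 in 10 and 6 of the 68 rows. In the other rows the interval held differences of more than 1 log2 unit. The WT female group included WT female culture 3, in which rows specific to male libraries stood at 0.415 to 0.563 of the male level. The WT contrast, and the KO minus WT difference that uses it, were therefore not between clearly separated sexes.

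The sorted cells came from other animals and entered no part of the rule. Of the 68 rows, 52 passed the filter on low counts there and 16 did not; the 16 all held counts, at mean levels of 0.00487 to 0.654 CPM, and 12 of them had been under 1 CPM in WT vehicle cultures. The filter used all groups together. The comparison asks whether the rows that depend on genotype in culture do so in the adult brain after LPS in the animal. The median LPS response of the 52 rows was small, though some of these rows rose, and no genotype difference in the response was called.

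At 24 h after LPS, 13 of 52 blunted rows were higher than with vehicle in WT by edgeR's quasi-likelihood test (background 14.1%) and 4 lower (background 11.9%). In KO, 13 were higher and 3 lower (background 12.7% and 10.7%). The higher sets shared 11 rows and the lower sets 2, and no row moved in opposite directions. The median log2 change over the 52 rows was 0.13 in WT and 0.12 in KO, against 0.00 and -0.01 over all rows tested. With column sums the medians were -0.01 and 0.02, and 11 and 12 rows were called higher. Of the 15344 rows tested, 1524 and 1514 were then higher. The share of all calls that were higher went from 54.2% to 36.1% in WT and from 54.4% to 41.7% in KO. Of the retained rows 96 of 156 rose in WT and 88 of 156 in KO, with median changes of 0.98 and 1.03. The groups of libraries separated completely in 4 blunted rows in WT and 7 in KO (background 3.95% and 4.42%).

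The KO minus WT difference of the 24 h response was called in 0 of 52 rows by edgeR and by DESeq2, as in 0 of 15344 rows tested by edgeR (background 0.0% in each direction), and 1 of 52 had an unadjusted p under 0.05. Its median was 0.03 log2 units with a median 95% half-width of 0.86. In 21 of 52 rows the interval lay within 1 unit of 0. KO and WT sorted cells differed in 0 of 52 rows with vehicle (background 0.0196% higher and 0.00652% lower) and in 0 at 24 h (background 0.013% and 0.00652%) by edgeR and DESeq2, with 1 and 2 at an unadjusted p under 0.05. In 0 rows were all WT libraries above all KO libraries at 24 h (background 0.0196%).

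**Figure D5:**
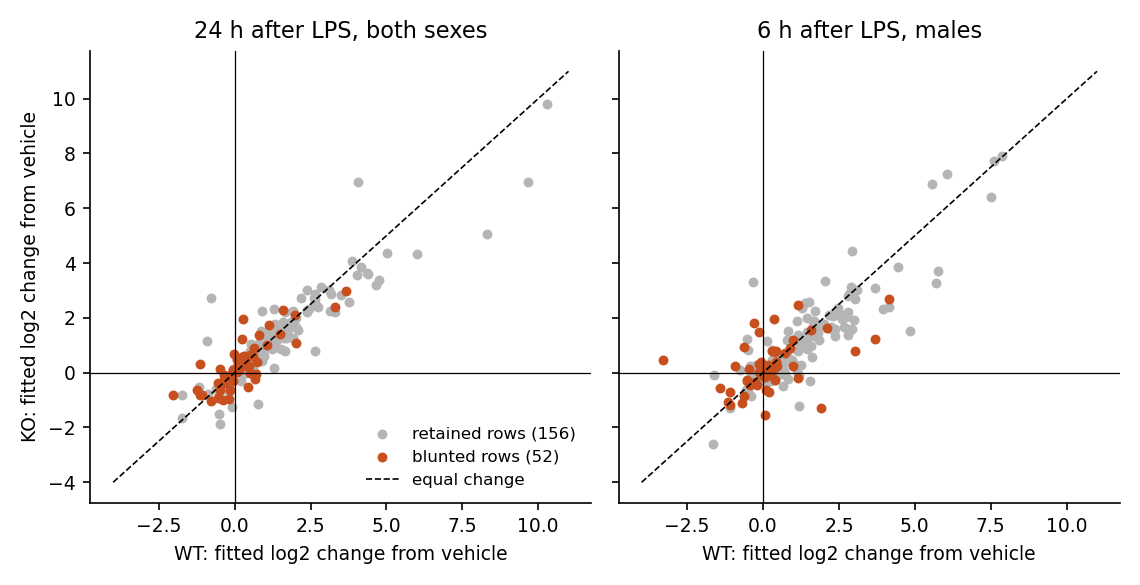
Fitted log2 change from vehicle in sorted microglia, KO against WT, at 24 h (left, both sexes) and 6 h (right, males), for the 52 blunted and 156 retained rows that passed the low-count filter; the dashed line is an equal change. At 24 h the blunted rows gather around 0 and along the dashed line (median 0.13 in WT and 0.12 in KO), below many retained rows (0.98 and 1.03).

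Row 4624, which had the largest genotype difference in culture, rose with LPS in sorted cells of both genotypes. It was at 0, 0.445 and 1.60 CPM (lowest, median and highest) in WT vehicle libraries and at 2.27, 6.60 and 10.4 CPM in WT 24 h libraries. In KO it was at 0, 0.691 and 1.61 CPM with vehicle and at 2.07, 4.63 and 15.2 CPM at 24 h, so the vehicle and LPS groups did not overlap in either genotype. The log2 change was 3.67 (SE 0.73, adjusted p = 0.000413, edgeR) in WT and 2.98 (SE 0.70, adjusted p = 0.00237, edgeR) in KO. The difference of the responses was -0.69 (95% interval -2.65 to 1.28).

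Row 19878 went from 0, 0.534 and 3.81 CPM with vehicle to 1.79, 5.11 and 12.6 CPM at 24 h in WT, and from 0, 0.593 and 2.14 CPM to 2.25, 2.73 and 9.44 CPM in KO. Its groups overlapped in WT and not in KO. The changes were 3.29 (SE 0.72, adjusted p = 0.0011, edgeR) and 2.39 (SE 0.71, adjusted p = 0.0144, edgeR), and the KO call was lost without KO female replicate 2 at 24 h (adjusted p = 0.0632). The abundant row 17734, at 154, 176 and 227 CPM in WT vehicle libraries and 306, 460 and 602 CPM at 24 h, rose by 1.48 (SE 0.15, adjusted p = 9.69e-08, edgeR). In KO it went from 166, 180 and 190.8 CPM to 303, 463 and 673 CPM, a rise of 1.40 (SE 0.16), with no overlap in either genotype. Row 8463 was at 0.443 to 9.26 CPM in the 33 sorted libraries, and its 24 h changes were -0.16 (SE 0.41) in WT and -0.63 (SE 0.43) in KO, neither called.

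Some blunted rows fell with LPS in the brain. Row 19453 was at 1.00, 1.89 and 2.17 CPM in WT vehicle libraries and at 0, 0.531 and 1.87 CPM at 24 h, a log2 change of -2.02 (SE 0.53, adjusted p = 0.00524, edgeR), and was at a change of -0.80 (SE 0.50) in KO, which was not called; the WT groups overlapped. Row 14757 went from 7.41, 11.2 and 13.5 CPM to 1.00, 3.69 and 8.61 CPM in WT, a change of -1.23 (SE 0.32, adjusted p = 0.00521, edgeR), again with overlap, and a KO change of -0.62 (SE 0.33) that was not called. In KO, row 4957 fell from 12.3, 19.8 and 26.3 CPM to 9.0, 11.8 and 15.3 CPM, a log2 change of -0.63 (SE 0.17, adjusted p = 0.00717, edgeR), against -0.48 in WT (SE 0.16, adjusted p = 0.0291, edgeR). The KO groups overlapped there and in row 23172. Row 23172 went from 26.0, 44.6 and 99.1 CPM to 14.2, 21.3 and 40.3 CPM in KO, a change of -0.98 (SE 0.35, adjusted p = 0.0439, edgeR). That call was lost without any 1 of 9 libraries, namely KO female 24 h replicates 1, 2 and 3, KO male 24 h replicates 1, 2 and 3, KO female vehicle replicate 2 and KO male vehicle replicates 1 and 3 (adjusted p = 0.0549 to 0.24), or with a term for the 2 runs of library numbers (0.0571). The count of 3 rows lower in KO was 1 without KO female 24 h replicate 1 or 2, KO male 24 h replicate 1 or 2, KO female vehicle replicate 2 or KO male vehicle replicate 1.

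At 6 h, the time used in culture, 7 of 52 blunted rows were higher in WT males (background 6.55%) and 2 lower (background 3.99%) by edgeR, and 2 were higher in KO males and 0 lower (background 4.07% and 2.97%). The 6 h libraries carried library numbers 68 to 73 and the vehicle and 24 h libraries numbers 3299 to 3402, so the time after LPS and this separate series of libraries cannot be told apart, in these comparisons or in those between the times. The genotypes at 6 h were within the same series. Among retained rows, 43 of 156 rose in WT and 28 in KO. The median change of the blunted rows was 0.10 in WT and 0.17 in KO, against 0.81 and 0.48 for the retained rows. Over all rows tested, the share of calls that were higher went from 62.2% with TMM to 72.4% with column sums in WT and from 57.8% to 71.7% in KO. The KO minus WT difference was called in 0 of 52 rows by edgeR and DESeq2, as in 0 of all rows tested by edgeR (background 0.0%), with 4 of 52 at an unadjusted p under 0.05. Its median was -0.01 (0.01 with column sums) and the median 95% half-width 1.28. The estimate was below 0 in 26 of 52 rows. These counts rest on 3 libraries a group. In WT, 4, 1, 3, 3 and 4 rows were higher without LPS replicate 1, LPS replicate 2 and vehicle replicates 1, 2 and 3, and the 2 lower became 0, 0, 5, 1, 0 and 1 without LPS replicates 1, 2 and 3 and vehicle replicates 1, 2 and 3. In KO, the 2 higher became 6, 0, 0, 1, 1 and 0 and the 0 lower became 2 without LPS replicate 1. A fit of the compared groups alone called 0 rows in either genotype. DESeq2 called 5 higher in KO.

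Row 15389 rose in males of both genotypes at 6 h. It was at 9.18, 14.4 and 15.6 CPM in the 3 WT male vehicle libraries and at 23.7, 71.0 and 84.3 CPM at 6 h, a change of 2.12 (SE 0.43, adjusted p = 0.00236, edgeR). In KO it was at 11.8, 11.9 and 13.9 CPM with vehicle and at 13.4, 53.1 and 59.2 CPM at 6 h, a change of 1.65 (SE 0.42, adjusted p = 0.0196, edgeR), with 1 KO LPS library inside the vehicle range. Row 5819 went from 0.446, 1.54 and 1.70 CPM to 1.51, 5.18 and 15.1 CPM in KO, a change of 2.48 (SE 0.70, adjusted p = 0.032, edgeR), and its WT change of 1.16 (SE 0.67) was not called; the KO groups overlapped. The KO call of row 15389 was lost without LPS replicate 2 or 3 or vehicle replicate 1 or 3 (adjusted p = 0.0592 to 0.14), and that of row 5819 without LPS replicate 2 or 3 or vehicle replicate 1, 2 or 3 (adjusted p = 0.0566 to 0.341).

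In WT males at 6 h, row 4624 went from 0, 0 and 0.89 CPM to 2.37, 4.92 and 10.4 CPM (log2 change 4.15, SE 1.11, adjusted p = 0.0166, edgeR) and row 19878 from 0, 0.148 and 0.564 CPM to 0.527, 3.73 and 6.54 CPM (3.70, SE 1.12, adjusted p = 0.0334, edgeR). The groups overlapped in the second row and not in the first. The first call was lost without LPS replicate 2 or vehicle replicate 1 or 2 (adjusted p = 0.07 to 0.118) and the second without LPS replicate 1 or 2 or vehicle replicate 2 or 3 (0.0876 to 0.202). Row 11910 went from 5.34, 5.50 and 7.85 CPM to 0, 0.921 and 1.02 CPM (-3.31, SE 1.04, adjusted p = 0.0411, edgeR), and row 8759 from 71.9, 75.7 and 79.2 CPM to 48.3, 53.2 and 62.1 CPM (-0.53, SE 0.14, adjusted p = 0.0151, edgeR). Neither of these groups overlapped. The call of row 11910 was lost without LPS replicate 1 or 2 or vehicle replicate 1, 2 or 3 (adjusted p = 0.0645 to 0.202), and that of row 8759 without LPS replicate 1 or 2 or vehicle replicate 2 (0.0604 to 0.122) and without a filter on low counts (0.112).

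Between the times, 3 rows were lower at 6 h than at 24 h in WT males and 0 higher by edgeR (background 2.85% and 2.23%), and in KO males 3 were lower and 2 higher (background 3.74% and 2.73%). With column sums, 2 and 2 were lower, where 300 and 355 of the 15344 rows tested were. The share of all calls that were higher went from 43.9% to 77.2% in WT and from 42.2% to 73.2% in KO. Row 10555 was at 20.3, 29.1 and 32.9 CPM at 6 h and at 40.9, 58.6 and 74.3 CPM (lowest, median and highest of 4) at 24 h in WT males, and at 26.1, 28.9 and 33.9 against 54.7, 74.4 and 85.6 CPM in KO males, with no overlap in either. The differences were -1.27 (SE 0.34, adjusted p = 0.0285, edgeR) and -1.47 (SE 0.34, adjusted p = 0.00874, edgeR). Row 15621 was at 13.7, 14.9 and 49.9 CPM at 6 h in WT and 47.3 to 95.2 CPM at 24 h, and at 8.16, 19.99 and 55.7 against 60.6 to 83.3 CPM in KO (adjusted p = 0.0385 and 0.0317, edgeR), and its groups overlapped in WT and not in KO. In KO males, row 8463 was at 5.35, 5.73 and 6.47 CPM at 6 h against 1.18 to 1.59 CPM at 24 h, and row 4957 at 21.6, 23.8 and 26.4 against 10.2 to 15.3 CPM, with no overlap (adjusted p = 0.0443 and 0.0395, edgeR).

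The calls between the times changed with single libraries. In WT the 3 lower became 0 without 24 h replicate 1 or 6 h replicate 1 or 2 and 1 without 24 h replicate 4. The highest count of lower rows in WT over these fits was 4. In KO the 2 higher became 1 without 24 h replicate 1 and 0 without any other library of the pair of groups, and the 3 lower became 1 without 24 h replicate 1, 2 or 3 or 6 h replicate 2 and 0 without 6 h replicate 3. The call of row 10555 was lost in WT without 24 h replicate 1 or 4 or 6 h replicate 1 or 2 (adjusted p = 0.0507 to 0.174) and in KO without 6 h replicate 3 (0.0541). That of row 15621 was lost in WT without 24 h replicate 1, 3 or 4 or 6 h replicate 1 or 2 (0.0569 to 0.212) and in KO without 24 h replicate 1, 2 or 3 or 6 h replicate 2 or 3 (0.0556 to 0.175). Row 8463 lost its call without any of the 7 KO libraries (0.0627 to 0.123) and row 4957 without any of them but 24 h replicate 1 (0.0693 to 0.107), and both lost it without a filter on low counts (0.0997 and 0.133).

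Lists rebuilt under other settings were followed in sorted cells at 24 h. With TMM library sizes, 148 rows passed and 119 of them were tested in sorted cells, of which 31.9% rose in WT and 29.4% in KO. Without WT female culture 3, 85 rows passed and 63 were tested, of which 28.6% rose in WT and 25.4% in KO. For the 68 rows, of which 52 were tested, the values were 25.0% in both genotypes. Over all rows tested, 14.1% rose in WT and 12.7% in KO. The KO minus WT difference was called by edgeR in 0 rows of each list. It was called in 0 of the 15344 rows tested, so no list could have given another count.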

How the data were processed

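Reads were processed by the authors, and the submitters' processing notes name the build GRCm38 and the tools Salmon 1.10.1, STAR 2.7.10a and Trim Galore 0.6.7; their order and counting settings are not given in the sources used here. Per the labels' protocols, culture libraries used 100 ng of RNA with a NEBNext kit and sorted libraries 0.97 ng with a SMARTer kit, so levels are not compared between the tables. The deposited values are raw counts per row (45707 rows in each table, unnamed), without molecular identifiers, so PCR copies are counted. Values are not scaled by length, so an order of rows by CPM is not an order of transcript levels.

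Groups came from the labels. The rule used log2(CPM + 1) with CPM from column sums and a pseudocount of 1. Tests were edgeR 4.0.16 quasi-likelihood fits (R 4.3.3) over all groups of a table, with TMM scaling and filterByExpr (minimum count 10, minimum total 15), sexes weighted equally (males alone at 6 h), two-sided, called at a Benjamini-Hochberg adjusted p under 0.05 over all rows tested. DESeq2 1.42.0 was an alternative. Folds against groups without counts used a floor of 3 counts over the group, for counting error only. The fits were tested on simulated data. The rows and comparisons were chosen with earlier results of these data known. Named rows were the 2 with the largest genotype difference in the rise, the 2 most abundant, those nearest to the limit, and the 2 with the largest called change in each direction of each comparison other than those of vehicle or LPS in culture. Rows 17734 and 8463 in sorted cells at 24 h and row 15389 in WT at 6 h were named after their values were seen. Gene lists for pathways and cell types were planned and not analysed here, for want of row names. In every pair of replicate libraries the chi-square of the counts, divided by its degrees of freedom, was at least 12.9, above sampling noise.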

Additional observations from a re-analysis of the deposited data

Results flagged for a closer look

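The library medians over the 68 rows, and the levels of the 4 rows with the largest genotype difference in the rise or the highest CPM, were examined for a library set apart from the others by Dixon's criterion. Of 48 sets of values from groups of 4 to 10 libraries, 9 had such a library, none of them among the medians. The criterion's chance rate of about 5% is for normally distributed values. CPM of rows with few counts are not such values, so the 9 cannot be read against that rate. In row 4624 these were WT female culture 14 with LPS at 157.1 CPM and WT female culture 12 with Tg+PDBu at 4.682 CPM. In row 17734 they were WT female culture 14 with vehicle at 145.6 CPM and 1 sorted WT vehicle library at 227.1 CPM. In row 19116 the highest library stood apart in 5 groups: 0.6511 CPM in KO LPS cultures, 0.8631 CPM in WT vehicle cultures, and in sorted cells 0.8029 CPM at 24 h in KO, 6.728 CPM at 24 h in WT and 0.5643 CPM with vehicle in WT; each of these but the WT 24 h library held few counts. The response to LPS in culture differed between the genotypes in 59 of the 68 rows by edgeR, a difference that the rule itself chose.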

How the results depend on the processing

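The number of rows passing the rule was 148 with TMM and 150 with RLE library sizes, with 65 of the 68 shared in each, and 49 to 84 without single libraries, with 49 to 68 shared. With pseudocounts of 0.5 and 2 it was 81 and 59, with 60 and 49 shared. In KO cultures with Tg+PDBu, 8 rows were higher by DESeq2 and 11 with the KO groups fitted alone, which gave 15 lower. With column sums, a choice made after seeing the data, 10 rows were lower between genotypes under Tg+PDBu and 4 higher in KO at 6 h. Over all rows tested, 1879 of 15979 and 884 of 15344 were. Without a filter on low counts, rows lower in sorted WT numbered 2 at 24 h and 1 at 6 h, rows higher in KO at 6 h numbered 4, and rows higher at 6 h than at 24 h in KO numbered 0. With the compared groups alone, 0 rows were called at 6 h in either direction in WT or higher in KO, 0 were lower at 6 h than at 24 h in WT, and 1 was higher in KO; DESeq2 called 5 higher in KO at 6 h and 5 lower at 6 h than at 24 h in KO. The cause of these changes was not tested.

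Without single libraries, the ranges of called rows were 2 to 6 lower in KO with vehicle in culture, 12 to 22 lower with Tg+PDBu in KO and 13 to 22 lower between genotypes under Tg+PDBu. In sorted cells they were 1 to 3 lower in KO at 24 h, 1 to 7 higher and 0 to 5 lower in WT at 6 h, and 0 to 6 higher and 0 to 2 lower in KO at 6 h. Between the times they were 0 to 4 lower at 6 h than at 24 h in WT, and 0 to 1 higher and 0 to 3 lower in KO. Of the counts of calls and list sizes under all alternatives, 769 were within 1.5 times the reported value and 65 were not. The 769 are no measure of stability, since they include counts that stayed at 0 without any single library. Examples are those by sex and those of the genotype difference in sorted cells. They also include the 68 rows higher with LPS in WT, which the rule chose. No value of a named row changed sign. Medians of the log2 change over the blunted rows changed sign with column sums for the genotypes under Tg+PDBu (-0.15 to 0.22), for sorted WT at 24 h (0.13 to -0.01), for the genotype difference at 6 h (-0.01 to 0.01) and between the times (-0.11 to 0.08 in WT and -0.11 to 0.07 in KO). For the named rows, 334 values stayed on their side of the threshold and 97 missed it. Following the rebuilt lists in sorted cells was also chosen after seeing the data.

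Culture numbers in the library names were tried as a replicate block. Deviations of same-numbered libraries from their group means correlated at 0.082 to 0.491 over 30 pairs, all above 0. Only the Tg+PDBu and vehicle libraries of WT male culture 9 were under 0.1. The block was kept as an alternative because not every pair exceeded 0.1. The culture tests reported above thus treat same-numbered libraries as independent, although their deviations were correlated. With the replicate block 57 rows had a lower response to LPS in KO, 51 rose with LPS in KO, and 7 rose and 20 fell with Tg+PDBu in KO, all within 1.5 times of the counts without it. Rows of few counts, such as 19116, and the 3 libraries a group at 6 h limit what the depth can show.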
